A study of Mus musculus with 41 samples.

Results

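The adipocyte and adipokine genes are 10 genes named by symbol: Adipoq, Lep, Retn, Cfd, Fabp4, Plin1, Cidec, Pparg, Lpl and Lipe. All 10 were found by their exact names among the 30175 gene names on the array, and each was measured by its probe of highest mean signal in 41 mammary tumors. White adipocytes fill the mammary fat pad around the epithelial ducts and store triglyceride in 1 large droplet per cell. PPARG, a nuclear receptor, turns on the adipocyte program, the droplet is coated by perilipin and CIDEC, and fat is taken up through lipoprotein lipase, carried by FABP4 and released by hormone-sensitive lipase. Adipocytes also secrete hormones called adipokines, of which adiponectin, leptin, resistin and adipsin are the best known. Adipocytes are resident cells of the gland, so these genes are commonly read as a sign of fat tissue in a mammary sample.

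The tumors arose from Trp53-null mammary fragments of BALB/c donors that were transplanted into cleared fat pads of wild-type female BALB/c mice, so the epithelium that gave rise to them lacked Trp53 while the fat pad and the rest of the host did not. The host therefore kept its own adipocytes, and in a whole tumor fewer cells of a type and less RNA per cell cannot be told apart. The label for morphology splits the tumors into 29 "p53 variable" tumors, called epithelial here after the study's own term, and 12 "p53 spindle-like" tumors, called spindle cell. Hosts ate a low fat diet (LFD), a high fat diet (HFD), HFD in puberty and LFD as adults (HFD-LFD) or LFD in puberty and HFD as adults (LFD-HFD). Epithelial tumors numbered 8 on LFD, 8 on HFD, 7 on HFD-LFD and 6 on LFD-HFD, and each regimen had 3 spindle cell tumors. Tumors were early or late in onset, with 14 early and 15 late epithelial tumors and 3 early and 9 late spindle cell tumors. Tumor names hold a number and a side, and 3 numbers occur on 2 tumors, in MSU_117L and MSU_117R, MSU_11L and MSU_11R, and MSU_56R and MSU_M56LA. The labels do not say that a number is a mouse, so p-values measure the spread between tumors, some of which may share a host or donor.

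Tumors are named as in the labels, and the figures leave out the prefix MSU. Each value is the log2 ratio of the tumor signal to the signal of a Universal Mouse Reference, RNA pooled from 11 mouse cell lines, on the same 2-color array. The labels put the tumor in Cy5 and the reference in Cy3, whereas the study's methods give the reference the other dye, so every sign here runs opposite to that statement. The labels' direction was used, and the Y-linked Ddx3y and Eif2s3y, which female tumors lack, were below 0 on 41 of 41 arrays. The tumor signal was well above background on all 41 arrays for Adipoq, Retn, Cfd, Fabp4, Cidec, Pparg and Lpl, and on 39 or 40 for Plin1 and Lipe, and the reference was on all 41 for these 9 genes. Lep was dim, well above background in 15 of 29 epithelial and 2 of 12 spindle cell tumors and in the reference on 8 arrays, so most of its ratios rest on a reference signal close to background. Outlier spots left gaps, among them 8 of the 10 genes on the array of MSU_60L, an early HFD tumor, which is therefore missing from most values below. One scanner and 1 scan session, with a software version of their own, served the 12 spindle cell arrays and no others, so the effects of histology and of scanning cannot be told apart. MSU_42L4B and MSU_60L, both early HFD epithelial tumors, were alone on slide 5 and in another scan session. Their arrays had 3.5% and 22.02% outlier spots, and the reference was well above background on 53.48% and 47.51% of spots. MSU_42L4B gave the lowest epithelial value of Adipoq, Cfd, Fabp4, Cidec and Pparg. The SD of log2 ratios over an array ran from 1.08 to 1.82, and the spindle cell tumor MSU_M32L, at 1.18, had the lowest SD of the 12. In the authors' matrix the columns of MSU_40R4A, MSU_57R and MSU_65R each matched the scanner file of another of these tumors best.

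The probes of Adipoq, Retn and Lipe are shown as the letters that captured transcripts of 2 hormones and of a lipase. They are given 5′ to 3′ with the coordinates the array files carry for NCBI37/mm9. The Adipoq probe lies at chr16:23157576-23157635, the Retn probe at chr8:3657312-3657371 and the Lipe probe at chr7:26165828-26165887.
Adipoq: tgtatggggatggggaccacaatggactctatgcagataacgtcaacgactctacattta
Retn: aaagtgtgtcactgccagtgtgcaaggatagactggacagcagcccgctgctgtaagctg
Lipe: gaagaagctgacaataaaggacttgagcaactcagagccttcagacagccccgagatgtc

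The RefSeq table of promoters on GRCm38.p6 held 12 starts for 8 of the 10 genes. The 250 bases before the start are shown for Adipoq and Plin1, a hormone and a droplet gene that varied together across epithelial tumors, and for 1 of the 3 starts of Pparg, which encodes the regulator. Capitals mark matches, on either strand, to TTNNGNAA, a form of the C/EBP site, and to CCAAT. The Adipoq window is chr16:23146286-23146535 on the plus strand, the Plin1 window chr7:79732777-79733026 on the minus strand and the Pparg window chr6:115421816-115422065 on the plus strand.
Adipoq: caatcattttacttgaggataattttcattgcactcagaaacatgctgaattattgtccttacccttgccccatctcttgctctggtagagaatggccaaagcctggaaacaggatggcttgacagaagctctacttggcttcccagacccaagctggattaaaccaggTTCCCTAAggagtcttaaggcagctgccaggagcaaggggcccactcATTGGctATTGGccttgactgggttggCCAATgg
Plin1: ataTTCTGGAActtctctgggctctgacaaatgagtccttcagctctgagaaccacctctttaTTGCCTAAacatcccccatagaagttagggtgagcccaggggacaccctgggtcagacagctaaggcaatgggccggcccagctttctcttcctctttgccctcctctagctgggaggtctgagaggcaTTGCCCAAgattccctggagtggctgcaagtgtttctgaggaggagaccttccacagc
Pparg: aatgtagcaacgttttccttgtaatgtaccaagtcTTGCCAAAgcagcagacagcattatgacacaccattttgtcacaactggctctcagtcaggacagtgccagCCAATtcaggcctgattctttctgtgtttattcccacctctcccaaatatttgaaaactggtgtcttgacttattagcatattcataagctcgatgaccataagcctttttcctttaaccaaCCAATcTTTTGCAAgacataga
TTNNGNAA was found before 6 of the 12 starts and before 36.9% of all 32841 starts in the table. CCAAT was found before 3 of the 12 and before 33.9% of all. The direct repeat bound by PPARG with RXR, AGGNCA repeated after 1 base N, was found before 0 of the 12 and 0.338% of all, and TATAAA before 1 of the 12 and 12.4% of all. A match describes letters only, and no match says only that these letters are not in this window.

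Most tumors held far less RNA of the adipocyte genes than the reference did. Among epithelial tumors the median log2 ratio was between -3.75 and -2.20 for the 9 genes other than Lep, which is 7.42% to 21.8% of the reference signal. Among spindle cell tumors the medians of the same 9 genes were between -5.56 and -2.18.

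Of the secreted products, Adipoq, the gene of adiponectin, had a lowest, median and highest log2 ratio of -5.22, -3.41 and -0.39 in epithelial tumors and -5.63, -4.79 and 3.16 in spindle cell tumors. Retn, the gene of resistin, had -3.79, -2.20 and 0.87 in epithelial and -4.21, -3.62 and 3.54 in spindle cell tumors. Cfd, the gene of adipsin or complement factor D, had -6.63, -2.22 and 1.12 in epithelial and -5.92, -3.98 and 4.34 in spindle cell tumors. In all 3 genes the spindle cell tumors had the lower median and both histologies overlapped over most of their range, with the highest values in spindle cell tumors. Lep, the gene of leptin, had -0.56, 0.60 and 2.88 in epithelial and 0.06, 0.71 and 5.90 in spindle cell tumors, and the groups overlapped.

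Of the droplet genes, Plin1, which codes for the perilipin that coats the droplet and gates lipolysis, had -5.77, -3.75 and -1.24 in epithelial and -6.43, -5.56 and 2.73 in spindle cell tumors. Cidec, whose product fuses droplets, had -5.33, -3 and 0.26 in epithelial and -5.83, -4.66 and 3.85 in spindle cell tumors. Both droplet genes showed the pattern of the adipokines, with a lower spindle cell median and a higher spindle cell maximum. Of the genes of fat uptake and release, Lpl, the enzyme that frees fatty acids from lipoproteins, had -4.65, -3.41 and -0.93 in epithelial and -5.96, -4.06 and 3.54 in spindle cell tumors. Lipe, hormone-sensitive lipase, had -3.33, -2.48 and -0.19 in epithelial and -2.74, -2.18 and 2.69 in spindle cell tumors, and here the spindle cell median was the higher. Fabp4, the fatty acid carrier, had -5.49, -3.26 and -0.82 in epithelial and -5.16, -3.54 and 3.95 in spindle cell tumors. Pparg had the narrowest spread among epithelial tumors, -3.39, -2.46 and -0.72, against -3.67, -2.85 and 1.45 in spindle cell tumors.

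**Figure D1:**
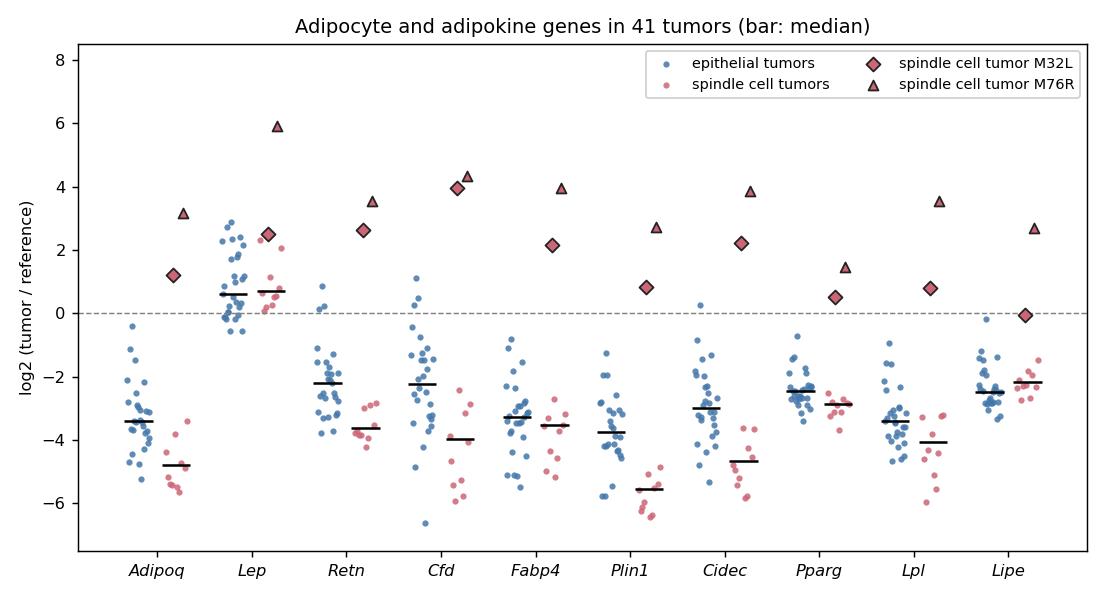
Log2 ratio of tumor over reference for each of the 10 genes, 1 point per tumor with a value, epithelial tumors in blue and spindle cell tumors in red, with a bar at the median. MSU_M32L (diamond) and MSU_M76R (triangle) stand above the other 10 spindle cell tumors in every gene, while most other points lie below 0.

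The spindle cell maxima came from MSU_M76R, an LFD-HFD tumor, in all 10 genes, and the next highest spindle cell value was that of MSU_M32L, an LFD tumor, in all 10. Over all genes with a value 8.41% were higher in both tumors than in the other 10, with 16.3% higher in MSU_M32L and 24.5% in MSU_M76R. Both were of late onset. In MSU_M32L 9 of the 10 genes were above the reference and in MSU_M76R all 10 were, whereas in each of the other 10 spindle cell tumors 1 was, and that gene was Lep. Adipoq was 1.20 in MSU_M32L and 3.16 in MSU_M76R on the log2 scale, against -5.63 to -3.40 in the other 10. Cfd was 3.94 in MSU_M32L and 4.34 in MSU_M76R against -5.92 to -2.42, so the gap from MSU_M32L down to the next spindle cell tumor was 6.36. The gap was smallest in Lep, 0.21, and in Lipe, 1.43, where MSU_M32L had -0.05 and the other 10 had -2.74 to -1.48. Except for Lep, both tumors were also above the highest epithelial tumor in every gene. For Lep MSU_M76R had 5.90 and MSU_M32L 2.51, with the highest epithelial tumor at 2.88. A second probe for Retn, Cidec and Lpl placed both tumors above the other 10 as well, with Cidec at 0.65 and 3.51 against -5.34 to -2.94. On the arrays of MSU_M32L and MSU_M76R the log2 reference signal of Fabp4 was 15.71 and 15.04, against 17.04 to 17.52 on the other 10. That of Adipoq was 12.84 and 13.29 against 13.68 to 13.98, and that of Retn 11.83 and 12.56 against 11.98 to 12.41. A low reference raises the ratio. In tumor signal Adipoq was 14.04 and 16.44, with the highest epithelial tumor at 13.75.

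Other genes of fat were high in the same 2 tumors. Of 28 genes of lipid droplets and lipid handling, 26 were higher in both MSU_M32L and MSU_M76R than in any of the other 10 spindle cell tumors, as were 8.41% of all genes. Plin4, a perilipin of white fat, was 2.05 and 4.56 in MSU_M32L and MSU_M76R against at most -2.93 in the others. Adrb3, the adrenergic receptor that starts lipolysis, was 3.59 and 4.05 against at most -2.15, and Mrap and Adig stood apart alike. Of 10 other adipokines 5 were higher in both, among them Rarres2, the gene of chemerin, at 2.62 and 3.06 against at most 1.76. Of 16 adipogenic transcription factors and their brakes 6 were higher in both. Of 10 receptors and partners of the adipokines and of lipoprotein lipase 3 were higher in both, among them Gpihbp1, which carries lipoprotein lipase across the capillary wall, at 0.83 and 1.64 against at most 0.13.

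Markers of other cells of a fat pad were counted in the same way, against the same 8.41% of all genes. Of 10 genes of preadipocytes and fibroblasts 7 were higher in both tumors than in the other 10, with Pi16 at 3.27 and 3.16 against at most 1.42. Of 8 endothelial genes 5 were, with Cdh5, the gene of VE-cadherin, at 1.34 and 1.38 against at most -0.03. Of 8 macrophage genes 0 were. Of 9 skeletal muscle genes 1 was higher in both, but 7 were higher in MSU_M76R, where 24.5% of all genes were. Their mean log2 ratio was -3.56 in MSU_M76R and -4.99 in MSU_M32L against -5.69 to -4.17 in the other 10. Acta1, skeletal actin, was -5.34 in MSU_M32L, inside the range of the other 10, and -2.27 in MSU_M76R, where the highest of the other 10 was -4.79. Of 9 brown or beige fat genes 5 were higher in both, and Ucp1, the uncoupling protein that defines brown fat, was -1.87 in MSU_M32L and -5.35 in MSU_M76R against at most -6.44. Of 9 epithelial genes 0 were, with Krt8 at 2.26 in MSU_M32L and -0.04 in MSU_M76R within the range of the other 10. Of the markers named here Adrb3 was well above background in 27 of 29 epithelial and 7 of 12 spindle cell tumors, and Ucp1, Acta1 and Krt8 in all of both. The examples for these 2 tumors were chosen after their values were seen. The sum of the tumor signals of the 10 adipocyte genes had a log2 of 19.28 in MSU_M32L and 20.36 in MSU_M76R, 12.94 to 15.19 in the other 10 and 12.60 to 17.60 in the epithelial tumors. The part of these other cells in the values of MSU_M32L and MSU_M76R was not tested.

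**Figure D2:**
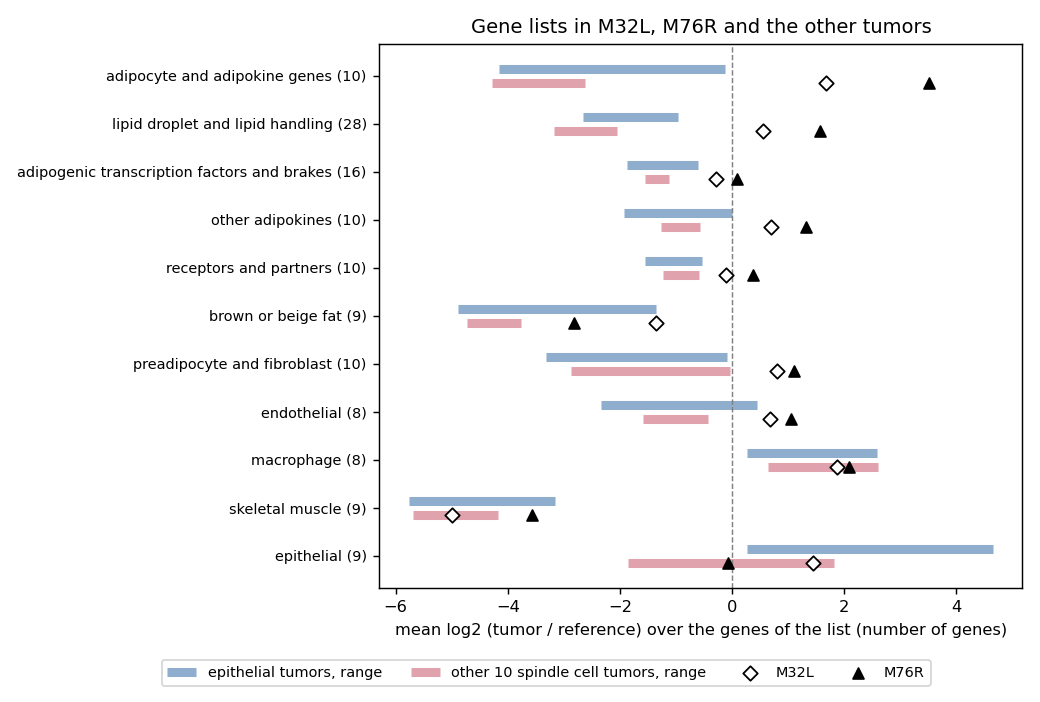
Mean log2 ratio of tumor over reference over the genes of each list (number of genes in brackets), as the range of the epithelial tumors (blue bar), the range of the other 10 spindle cell tumors (red bar), MSU_M32L (open diamond) and MSU_M76R (black triangle). Both tumors lie right of the red bar for the fat, fibroblast and endothelial lists and inside it for macrophage genes, at 1.88 and 2.08 against 0.65 to 2.60, and for epithelial genes. For skeletal muscle genes MSU_M76R lies right of it and MSU_M32L inside it.

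The first comparison asked whether spindle cell tumors differ from epithelial tumors. With all 12 spindle cell tumors, 0 of the 10 genes passed limma's moderated test at an adjusted p of 0.05, where 26.2% of all genes tested passed, and 1 had an unadjusted p under 0.05, as did 37.8% of all genes. That gene was Lipe, at -2.33 ± 0.69 (SD, n = 29) in epithelial and -1.61 ± 1.53 (SD, n = 12) in spindle cell tumors, a log2 difference of 0.72 ± 0.33 (SE, adjusted p = 0.104, limma). The median difference over the 10 genes was -0.16, with 5 genes below 0, against -0.03 over all genes, and it was 0.24 with every array scaled to the same SD. The differences ran from -0.83 for Plin1 to 0.72 for Lipe, and the 95% interval of Adipoq, -1.60 to 0.79, spanned both directions.

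Without MSU_M32L and MSU_M76R, 7 of the 10 genes were lower in spindle cell tumors, where 13.7% of all genes passed as lower and 28.9% in either direction. These 2 tumors were left out because of their values in these very genes, so this count describes the other 10 and is no independent test. Adipoq was -4.82 ± 0.75 (SD, n = 10), which is 1.57 ± 0.36 (SE) below the epithelial tumors on the log2 scale, with limma's adjusted p = 0.00128. Plin1 had the smallest adjusted p, 4.37e-05 in limma, with a difference of -2.08 ± 0.36, and Cfd the largest difference, -2.11 ± 0.56. Retn, Cidec, Pparg and Lpl passed too, by -1.44, -1.92, -0.58 and -1.07. Fabp4 at -0.61 ± 0.39, Lep at -0.04 ± 0.35 and Lipe at 0.14 ± 0.23 did not pass. The sign turned in 4 genes, from 0.55 with all tumors for Fabp4, 0.52 for Lep, 0.08 for Pparg and 0.02 for Lpl. Leaving out MSU_M86R as well again gave 7 of the 10 lower. In the reference channel the mean log2 signal of Plin1 was 11.83 on epithelial and 11.15 on spindle cell arrays, and that of Adipoq 14.13 and 13.72, and a lower reference signal by itself raises the ratio.

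**Figure D3:**
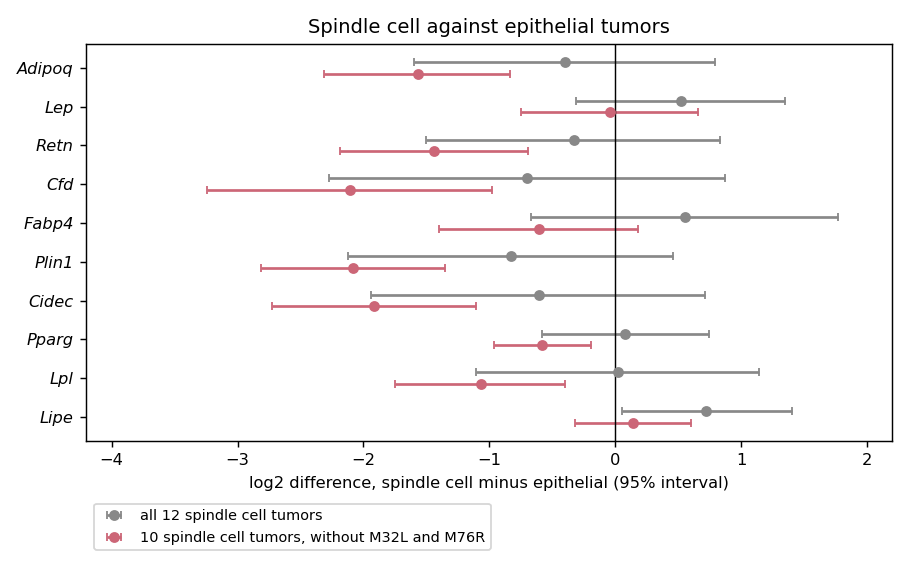
Log2 difference of spindle cell minus epithelial tumors for each gene with its 95% interval, from all 12 spindle cell tumors (grey) and from the 10 left without MSU_M32L and MSU_M76R (red). All 10 red points lie left of their grey points, and 7 red intervals lie wholly below 0.

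The other lists of the pathway were read against the same fits, in which 26.2% of all genes passed with all tumors and 28.9% without MSU_M32L and MSU_M76R. Without these 2 tumors 13.7% of all genes passed as lower. They were left out for high values in the 10 genes, so counts without them describe the other tumors and are no independent test. With all tumors 2 of the 28 lipid genes were higher in spindle cell tumors and 0 lower. These were Bscl2, the gene of seipin, by 0.58 ± 0.18 and Dgat1, which makes triglyceride, by 0.53 ± 0.16. The median difference of the 28 was 0.03. Without MSU_M32L and MSU_M76R 10 of the 28 were lower and 1 higher, among them Adrb3 by -2.10 ± 0.54, Car3 by -1.62 ± 0.32 and Plin4 by -1.48 ± 0.40, with a median of -0.48. Among other adipokines 0 of 10 passed, and without the 2 tumors Nrg4 was lower by -1.34 ± 0.31. Nrg4 was well above background in 23 of 29 epithelial and 5 of 12 spindle cell tumors. Among receptors and partners 3 of 10 were higher and 1 lower. Lrp1, a receptor that clears lipoproteins, was higher by 1.34 ± 0.28, Cdh13, a cadherin that binds adiponectin, by 0.65 ± 0.20 and Lepr, the leptin receptor, by 0.64 ± 0.24. Lmf1, which matures lipoprotein lipase, was lower by -0.48 ± 0.18. Without the 2 tumors Lrp1 and Lmf1 passed, by 1.26 ± 0.30 and -0.56 ± 0.19, and Cdh13 at 0.49 ± 0.21 and Lepr at 0.53 ± 0.25 did not. Among transcription factors 3 of 16 were higher, Zfp423 by 0.87 ± 0.33, Ebf1 by 0.80 ± 0.29 and Rxra, the partner of PPARG, by 0.71 ± 0.20, and without the 2 tumors only Rxra passed, by 0.72 ± 0.22. Of the endothelial genes 5 of 8 were higher, Tie1 by 1.13 ± 0.15, and of the preadipocyte and fibroblast genes 4 of 10, Col1a1 by 1.22 ± 0.35. Without the 2 tumors these counts were 3 higher of 8 endothelial genes, and 2 higher and 1 lower of 10 fibroblast genes. Of the macrophage genes 0 of 8 passed with and without the 2 tumors. Of the skeletal muscle genes 1 of 9 was lower, Mylpf by -0.58 ± 0.16, and 2 without the 2 tumors. Mylpf was well above background in 18 of 29 epithelial and 1 of 12 spindle cell tumors, so most of its spindle cell values were near background. Of the epithelial genes 1 of 9 was lower, Cldn3 by -0.95 ± 0.36, and 0 passed without the 2 tumors. The brown fat list had 0 of 9, and without the 2 tumors 3 lower, Ucp1 by -1.04 ± 0.12.

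The regimens were compared within the 29 epithelial tumors. None of the 10 genes passed limma's F-test across the regimens at an adjusted p of 0.10 (0 of 10, with 2 at an unadjusted p under 0.05, as were 12.1% of all genes), where 0.176% of all genes passed. Lipe came closest with an adjusted p of 0.208 and Lpl followed with 0.378 (limma). In the 6 pairwise contrasts 0 of the 60 tests of these genes passed and 0.168% of all tests did. An unadjusted p under 0.05 was found in 7 of the 60 and in 9.31% of all tests.

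Regimen and slide overlapped: the 7 HFD-LFD tumors were on slides 3 (early) and 4 (late), the 8 LFD tumors on slides 6 (early) and 7 (late), and no other tumor was on these slides. Contrasts of HFD-LFD or LFD with another regimen therefore cannot be told apart from slide, and with slide as a random block 0 of all genes passed across the regimens. For Lipe the 7 HFD-LFD tumors were at -2.44, -2.38, -1.90, -1.46, -1.42, -1.20 and -0.19, the last in MSU_122Rb. The other regimens had medians of -2.76 on LFD, -2.64 on HFD and -2.50 on LFD-HFD. The HFD-LFD tumors were thus the higher ones, with overlap between all regimens. Lipe was 1.01 ± 0.29 (SE) higher on HFD-LFD than on LFD, with limma's adjusted p = 0.115, and 1.1 ± 0.29 higher than on HFD, with an adjusted p of 0.176. Lpl was 1.17 ± 0.41 higher on HFD-LFD than on LFD (adjusted p = 0.211, limma) and Pparg 0.75 ± 0.27 higher (adjusted p = 0.218). These contrasts share the HFD-LFD tumors. Whether Lipe passed turned with the values used. It passed against LFD in the authors' matrix, from the tumor channel alone and without MSU_42L4B and MSU_60L. Over all genes and contrasts 668, 21567 and 816 tests passed under these settings, in place of 305.

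Of the 7 HFD-LFD tumors 3, MSU_117R, MSU_122Rb and MSU_109L, had the highest medians over the 10 genes of all epithelial tumors, at -0.61, -1.08 and -1.12. In Adipoq they were at -0.39, -1.46 and -1.12, while MSU_108R, MSU_110R, MSU_117L and MSU_107R of the same regimen were at -4.68, -3.65, -4.44 and -2.80. HFD-LFD therefore held the highest tumors and others near the bottom of the epithelial range. The lowest epithelial Adipoq value, -5.22, was on HFD, in MSU_42L4B, which was scanned in a separate session. The SD of Adipoq was 1.69 on HFD-LFD against 0.67 on LFD, 0.96 on HFD and 0.74 on LFD-HFD. MSU_117R and MSU_117L, which share a number in their labels, were thus at -0.39 and -4.44. The arrays of MSU_122Rb and MSU_109L had the lowest SDs of log2 ratios among epithelial tumors, 1.08 and 1.16, and that of MSU_117R had 1.58. Across 29 epithelial tumors the median over the genes measured and the SD of the array had a Pearson r of -0.394 and a Spearman rho of -0.237, and r was -0.108 without the 2 arrays farthest from the median SD. The 29 include MSU_60L, whose median, -1.21, is that of only 2 genes. Scaling every array to the same SD called 0 of the 10 genes across the regimens.

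**Figure D4:**
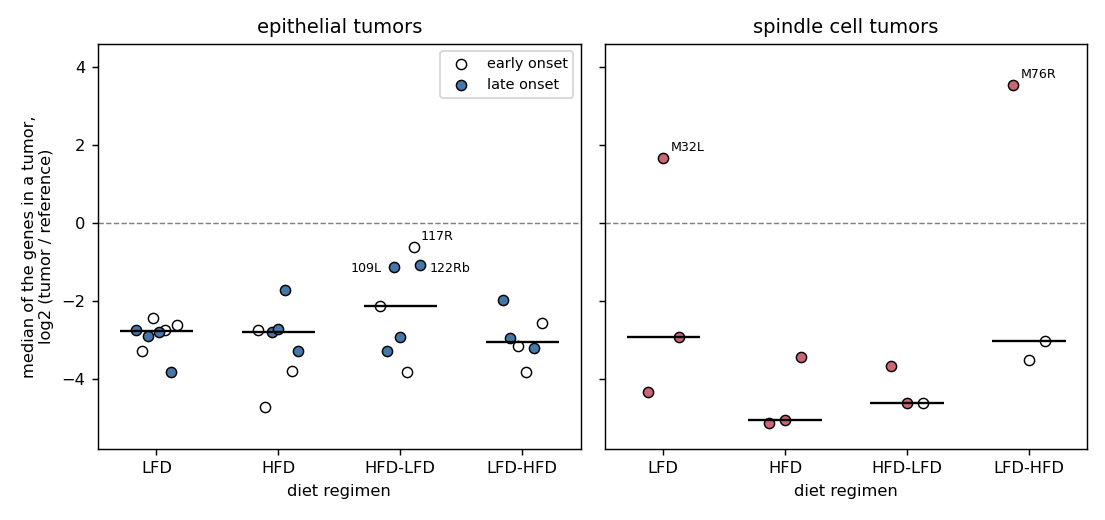
Median log2 ratio of tumor over reference over the 10 genes, 1 point per tumor with at least 8 values, by diet regimen for 28 epithelial and 12 spindle cell tumors. Open points are early and filled points late tumors, and bars are group medians. MSU_M32L and MSU_M76R are the tumors above 0, and MSU_117R, MSU_122Rb and MSU_109L are the highest epithelial tumors.

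Pubertal diet was compared by setting HFD and HFD-LFD against LFD and LFD-HFD. In all tumors 0 of the 10 genes passed at an adjusted p of 0.10 in limma, with 0 at an unadjusted p under 0.05, and 0.00994% of all genes passed. All 10 differences were below 0, with a median of -0.59 against -0.02 over all genes, and without MSU_M32L and MSU_M76R the median was -0.05 with 5 below 0. Both, on pubertal LFD, were left out for their high values in these very genes, so that median is no independent test. In the epithelial tumors alone 0 of the 10 passed, again with 0 at an unadjusted p under 0.05, and 0% of all genes did. There the median was 0.30, with 9 of the 10 genes higher after pubertal HFD, Lpl by 0.58 ± 0.32 (95% interval -0.08 to 1.24). Without MSU_117R, MSU_122Rb and MSU_109L that median was -0.18. These tumors, all on pubertal HFD, were left out for their high values in these very genes, so this is no independent test. Of the slides of epithelial tumors only slide 1 held both pubertal diets, so pubertal diet and slide largely overlapped there. With slide as a fixed block the median was 0.60 in epithelial tumors and -1.67 in all tumors, and 0 of the 10 passed in each.

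Adult diet and onset gave no call in epithelial tumors. For adult HFD against adult LFD 0 of the 10 genes passed in limma, 0 had an unadjusted p under 0.05, and 0% of all genes passed. No slide of epithelial tumors held both adult diets, so adult diet and slide cannot be told apart here. The median difference was -0.45, and the largest, in Cfd, was -1.03 ± 0.58 (95% interval -2.21 to 0.16). Without MSU_117R, MSU_122Rb and MSU_109L, all on adult LFD, the median was 0.09 and Cfd was at -0.43. These tumors were left out for their high values in these very genes, so this is no independent test. For early against late tumors 0 of the 10 passed, with 0 at an unadjusted p under 0.05, beside 0.053% of all genes. Slides 3, 5 and 6 held early and slides 4 and 7 late epithelial tumors only, so onset and slide overlapped. The median difference was -0.21, and -0.58 with slide as a fixed block. Lpl was at -3.61 ± 0.93 in the 13 early tumors with a value and -2.99 ± 0.84 (SD) in the 15 late ones, a difference of -0.62 ± 0.32 (SE) with an adjusted p of 0.482 in limma. Adipoq was at -3.33 ± 1.16 (SD, n = 13) and -3.18 ± 1.07 (SD, n = 15), a difference well inside the spread of either group.

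The interaction of histology with pubertal diet asks whether pubertal HFD goes with a different shift in spindle cell than in epithelial tumors. It was below 0 in all 10 genes, with a median of -3.21 log2 units against 0 over all genes, and 9 of the 10 had an unadjusted p under 0.05, as did 11.4% of all genes. None passed an adjusted p of 0.10 in limma (0 of 10), where 0.288% of all genes did, and Lpl came closest. Pubertal diet and slide overlapped in part. All 3 HFD-LFD spindle cell tumors were on slide 10, and all 7 epithelial HFD-LFD tumors were on slides 3 and 4. With slide as a fixed block 1 of all genes passed in place of 87. Lpl in the 6 spindle cell tumors without pubertal HFD was -4.30 at the lowest, -3.23 at the median and 3.54 at the highest, and in the 6 with it -5.96, -4.85 and -3.28. In epithelial tumors the medians were -3.52 without and -3.14 with pubertal HFD. The pubertal HFD group of spindle cell tumors thus held the lowest values, and the highest values of the other group were MSU_M32L and MSU_M76R, both from hosts on pubertal LFD. The interaction was -3.70 ± 0.96 (SE) for Lpl, with limma's adjusted p = 0.113, and -3.15 ± 1.08 for Adipoq, with 0.259.

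The count of genes that passed turned with the signal used, and the size of the interaction with those 2 tumors. With normexp background correction and loess in place of the processed signals, 9 of the 10 genes passed, where 9.04% of all genes passed as lower, and the interaction was -3.87 ± 0.97 for Lpl (adjusted p = 0.0165, limma) and -3.40 ± 1.06 for Adipoq (adjusted p = 0.0434). Without MSU_M32L and MSU_M76R the median was -0.99 in place of -3.21 and 0 of the 10 passed, beside 0.00663% of all genes. An unadjusted p under 0.05 was then found in 1 of the 10 and in 6.59% of all genes. Lpl was then -1.76 ± 0.63 with an adjusted p of 0.546 (limma). With normexp and loess but without the 2 tumors 0 of the 10 passed and the median was -1.28. Both tumors, on pubertal LFD, were left out for their high values in these very genes, so results without them are no independent test. In the main fit with all tumors 59 of 30173 genes passed as lower. Among the other lists 1 of 10 adipokines and 2 of 10 fibroblast genes did, Rarres2 by -3.29 ± 0.69, Pi16 by -3.14 ± 0.71 and Dpt by -2.62 ± 0.58. Without MSU_M32L and MSU_M76R none of these 3 passed, with Rarres2 at -2.50 ± 0.69, Pi16 at -2.16 ± 0.67 and Dpt at -1.58 ± 0.45.

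**Figure D5:**
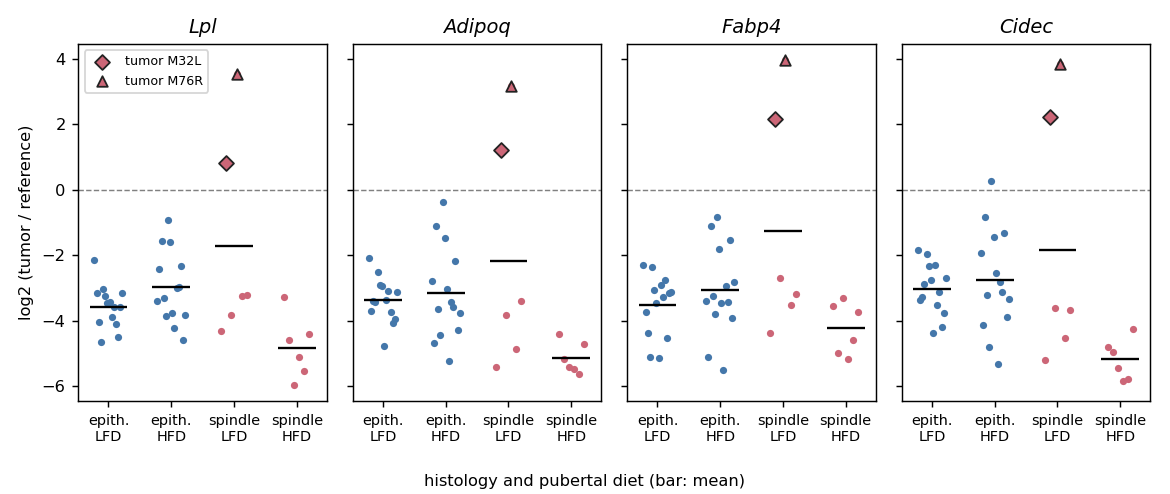
Log2 ratio of tumor over reference for Lpl, Adipoq, Fabp4 and Cidec by histology and pubertal diet, 1 point per tumor and a bar at the mean. In each gene MSU_M32L (diamond) and MSU_M76R (triangle) lie above all other spindle cell tumors on pubertal LFD and raise the mean of that group.

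The remaining comparisons called 0 of the 10 genes each. Across regimens within spindle cell tumors 0 passed in limma and 0 had an unadjusted p under 0.05, with 0% of all genes passing, and the 3 tumors of a regimen allow little precision. LFD-HFD spindle cell tumors had Adipoq at -4.87, -3.40 and 3.16 and HFD spindle cell tumors at -5.63, -5.47 and -4.71. Early against late spindle cell tumors also gave 0 of 10, 0 at an unadjusted p under 0.05 and 0% of all genes. All 10 genes were lower in the 3 early tumors, with a median of -1.18 that became 0.31 without MSU_M32L and MSU_M76R, both late. Both were left out for their high values in these very genes, so the median without them is no independent test. The interaction of histology with adult HFD gave 0 of 10, 0 at an unadjusted p under 0.05 and 0% of all genes, and that with onset 0 of 10, 0 at an unadjusted p under 0.05 and 0.00994% of all genes.

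The 10 genes varied together. Across epithelial tumors the Pearson r with Adipoq was 0.962 for Cidec, 0.949 for Plin1, 0.944 for Retn and 0.928 for Cfd, and it was lowest for Lep, 0.492, and Lipe, 0.557. Leaving out the 2 tumors farthest from the median of Adipoq gave 0.939 for Cidec and 0.436 for Lipe. Across the 12 spindle cell tumors r was between 0.907 and 0.995, and without MSU_M32L and MSU_M76R between 0.496 for Pparg and 0.929 for Plin1, so the higher values there rest in part on those tumors. The points share a reference and array, and no test was made. Outside the 10, the genes most like their mean z-score in 28 epithelial tumors were Car3, a carbonic anhydrase abundant in fat, with r 0.950, Pck1 and Mrap with 0.925 each, Slc7a10 with 0.916 and Ces1d with 0.910, followed by Plin4, Adrb3, Pnpla3, Timp4 and Serpina3c. Spearman's rho was 0.934 for Car3, and r was 0.919 without MSU_117R and MSU_122Rb. In the 12 spindle cell tumors the 10 most alike were Plin4 with r 0.998, Car3 with 0.994, Serpina3c, Sult1a1, Pck1, Mrap, Slc7a10, Ces1d, Trim67 and Pnpla3, and without MSU_M32L and MSU_M76R r was 0.959 for Plin4 and 0.860 for Car3.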

How the data were processed

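RNA of 41 tumors was hybridized with a common reference on 2-color Agilent arrays. The authors deposited scanner intensity values (Feature Extraction 11.0.1.1 for epithelial and 10.5.1.1 for spindle cell tumors, per the file headers) together with other columns that flag outlier spots, and a matrix of log2 ratios of 39265 probes that they had filtered and normalized. Here the log2 ratio of the processed signals was taken, outlier spots were left missing, spots were averaged per probe, and 1 probe was kept per gene, that of highest mean signal in both channels. The methods' filter and imputation were not applied and limma replaced SAM. Linear models were fitted to all 30175 genes in R 4.3.3 with the moderated variance of limma 3.58.1, with Benjamini-Hochberg adjustment over all genes and thresholds of 0.05 for histology and 0.10 elsewhere. The fit was tested on simulated data, where a log2 change of 2 was found in 94.5% of changed genes for histology and 87.1% for the regimens, and false calls made up 4.35% to 11.8% of calls over 5 comparisons. In the main fits the diet and onset differences of the 10 genes in epithelial tumors were smaller than 2. Recovery of such smaller changes was not simulated. Scanner signals, channels, filters, probes, outlier spots, slide, thresholds, covariates and left-out tumors were varied. The named genes were the 10, those of largest difference in fixed lists, and the 10 most alike in each histology, and examples from MSU_M32L and MSU_M76R were chosen after their values were seen. Members and lists were chosen with earlier results of these data known. The number of arrays limits the precision. Array names of the listed genes were updated through RefSeq synonyms, and the probes of the 10 genes had the same names in all files.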

Additional observations from a re-analysis of the deposited data

Results flagged for a closer look

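Among 40 sets of values, each gene in each epithelial regimen, 1 had a tumor far from the others, where chance gives about 1 in 20. Lep in MSU_117R was at 2.72 among 7 epithelial HFD-LFD tumors, with the next highest at 0.86 and a gap of 0.641 of the range. The ratio rests on a reference signal that was not well above background on that array. In tumor signal, on the log2 scale, MSU_117R, at 6.51, was below MSU_109L at 7.31 and MSU_122Rb at 6.79.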

How the results depend on the processing

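The settings changed no count of called genes for pubertal diet in all and in epithelial tumors, adult diet, onset, the spindle cell regimens and the interactions with adult HFD and onset, which stayed at 0 of 10. For spindle cell against epithelial tumors the count of 0 became 7 without MSU_M32L, MSU_M76R and MSU_M86R, 7 without MSU_M32L and MSU_M76R and 7 with normexp and loess without these 2, and 1, Lipe, with arrays scaled to the same SD; leaving out 1 tumor gave 0 to 1, the 1 being Plin1 without MSU_M76R. Fabp4, Lep, Pparg and Lpl turned sign without these tumors. Fabp4 and Lep, not called there, went to -0.69 and -0.18 without the 3, -0.61 and -0.04 without the 2, and -0.58 and -0.11 with normexp and loess without the 2. Pparg and Lpl went to -0.59 and -1.20 without the 3 tumors, -0.58 and -1.07 without the 2, and -0.54 and -1.05 with normexp and loess without the 2. For the epithelial regimens it became 1, Lipe, from the tumor channel alone and from the matrix, where 7326 and 234 of all genes passed. For the pairwise contrasts it became 4 from the tumor channel alone, 2 from the matrix and 1 without MSU_42L4B, MSU_60L and MSU_M86R. Of all tests 21567, 668 and 816 passed under these settings. With 1 tumor left out it was 0 to 1, the 1 without MSU_117L, MSU_11L or MSU_71L. For the interaction with pubertal HFD it became 9 with normexp and loess and 3 without MSU_42L4B, MSU_60L and MSU_M86R, where 3328 and 430 of all genes passed in place of 87. It became 1, Lpl, with the methods' filter, with probes filtered for signal above background and from the matrix, the last with 192 of all genes. Leaving out 1 tumor gave 0 to 5, with 5 without MSU_M18L and 1 without MSU_101L4A, MSU_60L, MSU_65R, MSU_M33R, MSU_M84R or MSU_M86R. MSU_M18L was a spindle cell tumor on pubertal LFD, as were MSU_M32L and MSU_M76R. Over all genes the count called was 7892 for histology and 3910 at the lowest, with normexp and loess. It was 53 for the regimens and ran from 0, with slide as a random block, to 7326 from the tumor channel alone, and 305 for the pairwise contrasts, from 0 to 21567 under the same settings. It was 87 for the interaction with pubertal HFD and ran from 1, with slide as a fixed block, to 3328 with normexp and loess. It was 0 for pubertal diet in epithelial tumors and up to 667 with normexp and loess. For onset it was 16 and up to 177 from the tumor channel alone, and 0 with MSU_40R4A, MSU_57R and MSU_65R under the matrix labels. The cause of these changes was not tested, apart from the tumors left out. The settings without MSU_M32L and MSU_M76R, with arrays scaled to the same SD and without MSU_109L, MSU_117R and MSU_122Rb were added after the data were seen. Slide as a fixed block could not be fitted for 5 comparisons. No paired analysis was possible because no comparison had more than 1 number that occurred on both of its sides: that of MSU_11L and MSU_11R for onset and that of MSU_56R and MSU_M56LA for histology. With 1 tumor kept for each shared number, 0 of the 10 were called in each of the 12 comparisons. Lep, near background, is the gene whose ratios the signal limits most.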
